A study of Mus musculus with 28 samples.

Results

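*Ctcf* encodes the zinc finger protein CTCF, and *Ctcfl* encodes its paralog CTCFL, also called BORIS. Both genes were followed here through RNA-seq and DNase-seq of mouse CD4+ T cells. They are 2 of the 24089 genes of the RPKM table (read density per kilobase of gene, scaled to library size), and were read in all 24 of its columns. The pair was chosen by measured values, namely the levels of both genes in the KO columns against the WT columns, so that contrast is given below as a description with no test.

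CTCF binds a long DNA motif through its array of zinc fingers. It halts the cohesin ring as cohesin extrudes chromatin loops, and in this way it marks loop anchors and boundaries between domains in most cell types, T cells included. CTCFL carries a closely related zinc finger array with unlike ends. It is known mainly from male germ cells and from some tumours, and in most somatic tissues its gene is held silent.

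Naïve CD4+ T cells came from the spleen and lymph nodes of *Tgfbr1* f/f ER-cre+ mice of both sexes, 8 to 10 weeks old, in which a tamoxifen-activated Cre recombinase can delete the gene for TGF-β receptor I. Mice given oil are called WT and mice given tamoxifen for 5 days are called KO, so both genotypes carried the floxed allele and the Cre, and the deletion cannot be told apart from tamoxifen itself. All cells received anti-CD3 and anti-CD28 and were cultured without cytokine (control), with TGF-β, with IL-4, or with both cytokines, the combination that drives differentiation to Th9 cells. RNA-seq covered 8 groups of 3 libraries each, 24 in all. The libraries of a genotype are numbered 1 to 3, and each number is taken here as 1 mouse. DNase-seq covered 1 library each of WT control, WT with both cytokines, KO control and KO with both cytokines.

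The steps between low RPKM values gave the depth of the RNA-seq columns, between 19200000 and 40100000 reads (median 28300000, rounded estimates). *Tgfbr1*, the targeted gene, ran from 3.02 to 20.7 RPKM in the 12 WT columns (median 8.91) and from 2.32 to 5.18 RPKM in the 12 KO columns (median 3.11), with 7 KO columns above the lowest WT column. The 6 T cell markers examined were present in all columns, with summed levels between 1035 and 1469 RPKM. The 10 markers of other cells summed to between 32 and 59.8 RPKM in WT (median 45.6) and between 21.2 and 47.9 RPKM in KO (median 33.9).

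The headings of the columns conflict with read counts that the study lists for 8 of the 12 WT libraries. Each of the 8 listed libraries was matched to the column in which the same genes were at 0. The matching column carried the heading of that library in only 2 of 8 cases, whereas in 8 of 8 cases it was the column expected from position, when columns are read in the order of the library numbers and each block of 4 holds control, the 2 single cytokines in that order and then both, of 1 mouse. Heading and position name the same library in 4 columns and the same genotype in all 24. Groups were therefore compared first by genotype alone, which does not depend on the conflict, and then by culture according to position. For the other 4 WT columns and all 12 KO columns no listed counts were at hand, so that their culture was taken from position. By position, *Tgfbr1* in WT was 3.02, 3.25 and 3.31 RPKM in control and 3.69, 3.48 and 3.94 RPKM with IL-4, against 13.9, 14 and 14.5 RPKM with TGF-β and 17.6, 19.5 and 20.7 RPKM with both cytokines (mice 1, 2 and 3). The 4 columns without listed counts, those of mouse 2, thus had the same order of low and high values as the 8 matched columns. In KO control it was 2.32, 2.55 and 3.05 RPKM, close below WT control, so that the wide gap between the genotypes in this gene was in the 2 cultures with TGF-β.

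In the mm9 assembly, *Ctcf* (ENSMUSG00000005698.9) is a plus strand gene of chromosome 8 at chr8:108160468-108206822. *Ctcfl* (ENSMUSG00000070495.4) lies on the minus strand of chromosome 2, at chr2:172919110-172945026, with 11 exons. The 200 bases in front of the annotated *Ctcf* start (chr8:108160268-108160467, plus strand) are shown because the summit of open chromatin, described below, lay in them. Capitals mark CG pairs, of which this stretch held 25.
Ctcf: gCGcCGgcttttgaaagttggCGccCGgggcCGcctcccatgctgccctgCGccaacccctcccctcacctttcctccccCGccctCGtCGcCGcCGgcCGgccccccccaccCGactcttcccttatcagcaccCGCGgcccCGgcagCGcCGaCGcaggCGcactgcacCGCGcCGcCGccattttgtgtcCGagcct

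A wider window of 300 bases, from 250 bases before to 50 bases after the start, held 45 CG pairs at *Ctcf*. Among the 32851 promoter windows of that length listed by RefSeq for GRCm38, the median was 7, and 1.93% held 45 or more. By this measure the *Ctcf* start lies in a CpG-rich stretch.

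The zinc finger arrays make the coding sequences alike. Without gaps, the best matching segment spanned 937 bases and was identical at 654 of them (69.8%), from base 796 to 1732 of the *Ctcf* coding sequence and from base 769 to 1705 of that of *Ctcfl*. The 60 bases with the highest identity, 50 of 60, are shown with identical bases in capitals, from base 976 of the *Ctcf* coding sequence and base 949 of that of *Ctcfl*.
Ctcf: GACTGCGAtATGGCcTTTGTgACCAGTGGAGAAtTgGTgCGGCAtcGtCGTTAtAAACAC
Ctcfl: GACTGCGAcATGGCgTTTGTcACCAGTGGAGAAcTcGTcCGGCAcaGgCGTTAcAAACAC

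The longest run shared exactly by both coding sequences was 12 bases, and no run of 25 bases was shared, so that reads from the coding parts of the 2 genes differ in sequence. A second gene does touch *Ctcfl*. The antisense gene *1300015D01Rik* runs on the plus strand through its 5′ part, and 1 of its exons (chr2:172938880-172939599) covers all 171 bases of *Ctcfl* exon 4. The library method, Smart-seq2, does not keep the strand, so reads from that exon cannot be told apart, and the antisense gene has no row of its own in the table.

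*Ctcf* and *Ctcfl* were both read at moderate levels in every library. Over the 24 columns *Ctcf* averaged 8.66 ± 0.938 RPKM (SD, n = 24 columns from 6 mice) and *Ctcfl* averaged 6.68 ± 1.32 RPKM, and 23% and 25.5% of genes in the table had a higher mean. The RPKM values fell on whole reads, 617 to 1338 reads per library for *Ctcf* and 283 to 1105 for *Ctcfl*, with a mean distance from a whole number of 0.00187 and 0.00124 reads. Counting error was therefore at most 4.03% for *Ctcf* and 5.94% for *Ctcfl*. The gene length recovered from these steps was 3217 bases for *Ctcfl*, equal to its annotated transcript, and 3823 bases for *Ctcf*, whose first annotated transcript has 3782.

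The level of *Ctcfl* was not accompanied by the germline genes that are often expressed beside it. Of 12 germline and meiotic genes none reached a mean of 1 RPKM, and the highest value in any column was 0.432 RPKM, for *Stag3*, a meiotic cohesin subunit. *Mael* and *Tex101*, both known from spermatogenesis, were listed at 0 in 24 of 24 columns. *Prss50* and *Gal3st1*, testis genes linked to CTCFL in earlier work on germ cells, averaged 0.163 and 0.0468 RPKM.

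*Ctcfl* was lower in KO than in WT, and *Ctcf* was slightly higher with overlapping values. In the 12 columns headed WT, *Ctcfl* ran from 6.81 to 9.35 RPKM (median 7.67), and in the 12 columns headed KO it ran from 4.38 to 6.47 RPKM (median 5.56). Every KO column was thus below every WT column. The means were 7.76 ± 0.833 RPKM in WT and 5.60 ± 0.639 RPKM in KO (SD, n = 12 columns from 3 mice each), a ratio of 0.722 and a difference in mean log2(RPKM + 1) of -0.41.

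*Ctcf* ran from 7.12 to 9.10 RPKM in WT (median 8.61) and from 7.45 to 10.5 RPKM in KO (median 9.04). The ranges overlapped, with 6 of 12 KO columns above all WT columns and 0 below. The means were 8.30 ± 0.774 and 9.02 ± 0.979 RPKM, a ratio of 1.09 and a difference of 0.11 on the log2 scale. The 2 differences thus had opposite signs, and neither difference reached 1.5-fold.

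These differences are those by which the pair was picked, and they are read against all genes only as background. Of 9726 genes with a mean of at least 1 RPKM, 1.61% had every KO column below every WT column, as *Ctcfl* did, and 2.05% had every KO column above. In limma, which treats the 12 columns of a genotype as separate although they come from 3 mice, 4.84% of genes passed an adjusted p under 0.01 with a fold over 1.5. *Ctcfl* ranked 964 of 9726 by the size of its difference, and the median gene stood at 0.02 on the log2 scale.

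Averaged by mouse, following position, *Ctcfl* was 7.79, 7.44 and 8.06 RPKM in the WT mice and 5.47, 5.74 and 5.60 RPKM in the KO mice. The mouse means of *Ctcf* were 8.33, 8.41 and 8.16 RPKM in WT and 9.78, 8.76 and 8.53 RPKM in KO. The *Ctcfl* means of the 3 KO mice lay close together. They are below those of the 3 WT mice in any grouping, since every KO column was below every WT column. For *Ctcf*, KO mouse 1 stood above the other KO mice. Without KO mouse 1 the *Ctcf* difference was 0.05 on the log2 scale, against 0.11 with all mice.

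The ratio of *Ctcfl* to *Ctcf* RPKM within a library does not depend on how libraries are scaled to each other. It ran from 0.756 to 1.27 in WT (median 0.960) and from 0.471 to 0.821 in KO (median 0.620). *Ctcfl* was above *Ctcf* in 3 of 12 WT libraries and in 0 of 12 KO libraries. The ratio is made of the values by which the pair was picked, so its lower range in KO adds no separate evidence.

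Some markers of other cells were also lower in KO, and others were not. *Cd8a*, which marks CD8+ T cells, ran from 5.04 to 8.87 RPKM in WT and from 1.14 to 3.85 RPKM in KO, without overlap. Its partner *Cd8b1* ran from 11.0 to 30.4 RPKM in WT (median 18.9) and from 12.8 to 25.1 RPKM in KO (median 19.9). The natural killer gene *Ncr1* had medians of 1.34 RPKM in WT and 1.82 RPKM in KO. *Cd79a*, a B cell marker, had medians of 5.92 RPKM in WT and 2.28 RPKM in KO, and *Lyz2*, a myeloid marker, had medians of 5.23 and 2.62 RPKM. Of the 10 markers, 7 were tested, 2 passed as lower and 0 as higher, where 3.68% of all genes passed as lower in the same fit of 12 columns from 3 mice each. The median difference was -0.52, with 2 of the 7 above 0, and *Csf1r* was at 0 in 3 columns. The cells had been enriched as naïve CD4+ CD62L+ cells on magnetic beads, a step that should remove these other types. In bulk RNA, fewer cells of a type and less RNA per cell cannot be told apart, and the part of these cells in the *Ctcfl* difference was not tested. Among T cell markers *Cd4* ran from 75.6 to 98.3 RPKM in WT (median 81.2) and from 93.2 to 122 RPKM in KO (median 107). KO minus WT was 0.35 for *Cd4*, 0.33 for *Cd28* and -0.35 for *Lck*, each under a fold of 1.5.

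Every KO column of *Ctcfl* was below every WT column, so any split into cultures gives the same direction without overlap. Only the size within a culture was open. By position, KO over WT was 0.738 in control, 0.702 with TGF-β, 0.617 with IL-4 and 0.845 with both cytokines, and the 3 KO values lay below the 3 WT values in 4 of 4 cultures. By heading the ratios were 0.648, 0.849, 0.670 and 0.737, again without overlap in 4 of 4 cultures. For *Ctcf* the ratios by position were 1.22, 1.1, 1.04 and 1.01, and the genotypes were apart only in control. By heading they were 1.18, 1.08, 1.14 and 0.951, and the genotypes were apart in control and with IL-4. The share of all genes whose genotypes lie apart within a culture was not counted.

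**Figure D1:**
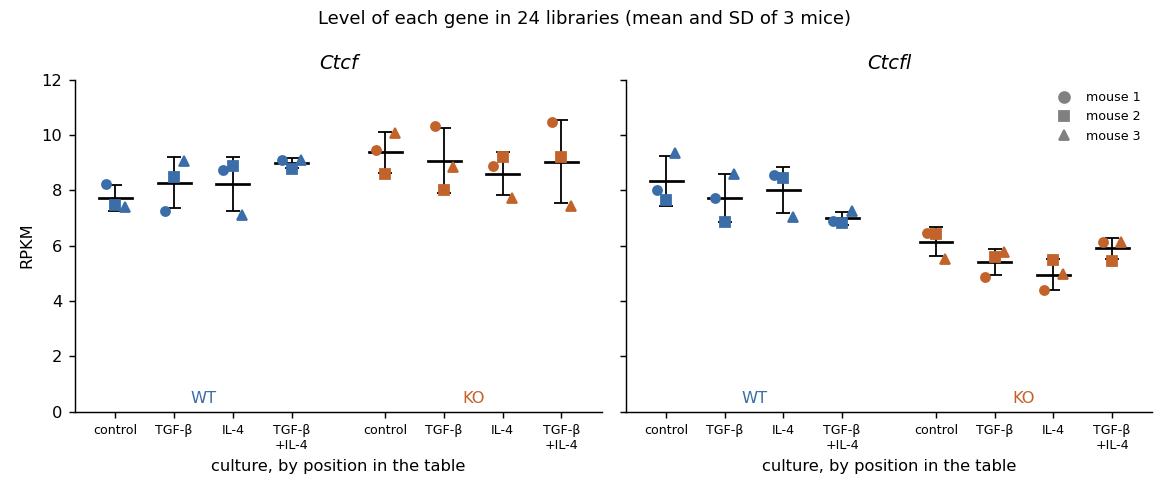
RPKM (vertical axis, linear from 0) of *Ctcf* (left) and *Ctcfl* (right) in 24 libraries, with cultures assigned by position in the table. Points are libraries, symbols are mice, and lines and bars are the mean and SD of 3 mice. All KO points of *Ctcfl* lie at or below 6.47 RPKM and all WT points at or above 6.81 RPKM.

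The remaining comparisons were not used in the choice of the pair. They ask whether the cytokines that drive Th9 differentiation altered either gene within a genotype, with cultures assigned by position. Values are listed for mice 1, 2 and 3 in turn. Groups of 3 can lie apart by chance. The shares of all genes without overlap, or with the same direction in 3 of 3 mice, were not counted. In limma, an unadjusted p under 0.05 was reached by 51.3% of genes in WT with both cytokines and by 20.6% in KO with IL-4.

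*Ctcf* in WT was 8.25, 7.49 and 7.38 RPKM in control, and 9.10, 8.77 and 9.08 RPKM with both cytokines. It was higher with both cytokines in 3 of 3 mice, and the groups did not overlap. TGF-β alone gave 7.26, 8.49 and 9.06 RPKM and IL-4 alone gave 8.73, 8.89 and 7.12 RPKM, both with a wide spread around the control values.

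*Ctcf* in KO was 9.46, 8.59 and 10.1 RPKM in control, 10.3, 8.02 and 8.84 RPKM with TGF-β, 8.87, 9.22 and 7.73 RPKM with IL-4, and 10.5, 9.21 and 7.45 RPKM with both cytokines. All 4 KO cultures overlapped. With both cytokines the KO mice spread from the highest to the lowest value of the genotype, with an SD of 1.51 RPKM, whereas the SD of the WT mice was 0.184 RPKM. These were the largest and the smallest SD of any *Ctcf* group by position, and the others ran from 0.470 to 1.17 RPKM. An SD of 3 values is imprecise, and the spreads were not tested.

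*Ctcfl* in WT was 8.0, 7.64 and 9.35 RPKM in control and 6.88, 6.81 and 7.27 RPKM with both cytokines. It was lower with both cytokines in 3 of 3 mice, again without overlap. With TGF-β alone it was 7.71, 6.86 and 8.58 RPKM, lower than the control of the same mouse in 3 of 3 mice, and with IL-4 alone it was 8.56, 8.44 and 7.05 RPKM, lower in 1 of 3.

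*Ctcfl* in KO was 6.47, 6.43 and 5.53 RPKM in control, 4.87, 5.60 and 5.78 RPKM with TGF-β, 4.38, 5.50 and 4.97 RPKM with IL-4, and 6.13, 5.45 and 6.12 RPKM with both cytokines. The IL-4 values were lower than the control of the same mouse in 3 of 3 mice and did not overlap with control. The other cytokine cultures overlapped with it.

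Neither gene was called in the culture comparisons or in the interactions described next. The test was limma on log2(RPKM + 1) over all genes. A call needed an adjusted p (Benjamini-Hochberg) below 0.01 with a change of more than 1.5-fold, and 3 of the 18 results had an unadjusted p under 0.05. Over all genes and the same 9 comparisons 22.1% of results did, with 51.3% in WT with both cytokines and 20.6% in KO with IL-4, so that 3 of 18 is no more than the background. The first was *Ctcf* in WT with both cytokines against control, higher by 0.20 (SE 0.07, 95% interval 0.05 to 0.35, adjusted p = 0.0377). The second was *Ctcfl* in the same comparison, with a difference of -0.22 (SE 0.08, 95% interval -0.40 to -0.04, adjusted p = 0.0533). The third was *Ctcfl* in KO with IL-4 against control, with a difference of -0.27 (SE 0.10, 95% interval -0.49 to -0.04, adjusted p = 0.157).

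These sizes correspond to folds of 1.15, 0.858 and 0.832 on that scale. In the WT comparison of both cytokines with control, 9.27% of genes were called, and the 2 genes were not among them. The shares of genes called were 5.71% for TGF-β and 1.29% for IL-4 in WT, and in KO 0.0105% for TGF-β, 2.51% for IL-4 and 1.92% for both cytokines. By position, some genes were thus called with the cytokines, but most genes, like *Ctcf* and *Ctcfl*, were not. The lack of a call therefore does not set the 2 genes apart. With cultures taken from the headings limma called 0 genes in each of these 6 comparisons and in the 3 interactions, with 61 to 1298 genes at an unadjusted p under 0.05, so these shares depend on the assignment by position.

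The effect of each cytokine was then compared between the genotypes by an interaction term. For both cytokines the KO effect minus the WT effect was -0.26 for *Ctcf* (SE 0.14, adjusted p = 0.268) and 0.17 for *Ctcfl* (SE 0.12, adjusted p = 0.388), where 4.18% of genes were called. For TGF-β it was -0.13 (SE 0.14, adjusted p = 0.662) and -0.06 (SE 0.14, adjusted p = 0.884), with 4.71% of genes called, and for IL-4 it was -0.19 (SE 0.13, adjusted p = 0.746) and -0.22 (SE 0.14, adjusted p = 0.739), with 0.0414% called. No difference between the genotypes in these effects was detected by limma. All 18 intervals of the 2 genes, interactions included, lay between -0.56 and 0.44, within a fold of 1.5 of RPKM + 1 either way. This bound depends on the 1 added to RPKM. With 0.1 added instead, *Ctcf* in the interaction with both cytokines was -0.28 (SE 0.16). *Ctcfl* in the IL-4 interaction was then -0.25 (SE 0.16).

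**Figure D2:**
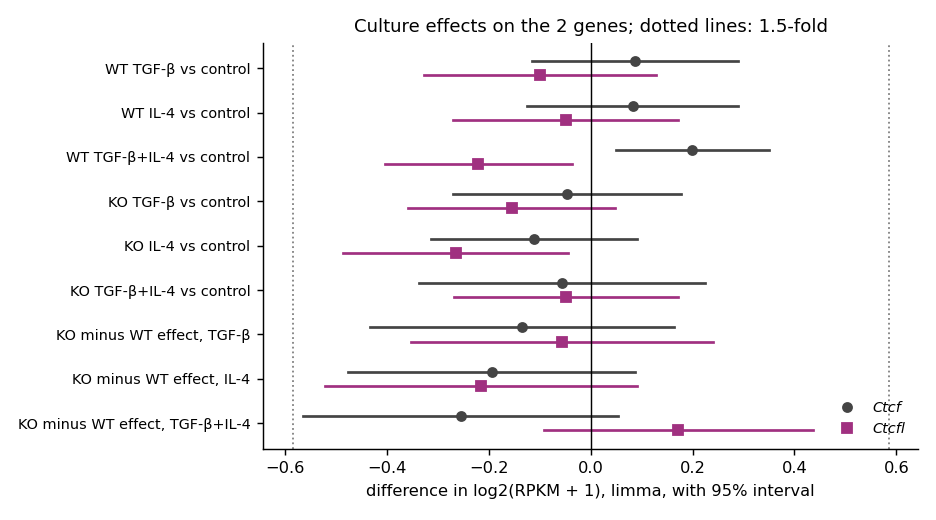
Differences in log2(RPKM + 1) (horizontal axis) for *Ctcf* and *Ctcfl* in 9 comparisons, from limma with 95% intervals, and dotted lines at a fold of 1.5. All 18 intervals lie inside the dotted lines, and the 3 that leave out 0 are *Ctcf* and *Ctcfl* in WT with both cytokines and *Ctcfl* in KO with IL-4.

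Ordered by group mean, *Ctcf* went from 7.71 ± 0.470 RPKM in WT control to 9.37 ± 0.745 RPKM in KO control (SD, n = 3). No 2 neighbours in that order differed by more than the larger of their SDs. *Ctcfl* went from 4.95 ± 0.559 RPKM in KO with IL-4 to 8.33 ± 0.90 RPKM in WT control. The 4 KO groups were below the 4 WT groups, as in any grouping of these columns. Neighbours in its order differed by more than the larger SD at 2 steps. The wider step was between KO control at 6.15 ± 0.533 RPKM and WT with both cytokines at 6.98 ± 0.247 RPKM, and the other was between KO TGF-β at 5.42 ± 0.479 RPKM and KO with both cytokines at 5.90 ± 0.393 RPKM.

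CTCF acts together with cohesin, so the genes of the cohesin ring were read beside it. *Smc1a*, *Smc3*, *Rad21*, *Stag1* and *Stag2* encode the ring and its STAG subunits. All 5 had a higher mean in KO than in WT, by 0.18 to 0.27 on the log2 scale with a median of 0.22, on the same side as *Ctcf*, and the median over all genes was 0.02. *Smc3* ran from 19.2 to 23.3 RPKM in WT and from 23.6 to 27.7 RPKM in KO without overlap, and the other 4 overlapped. Of the 9726 genes with a mean of at least 1 RPKM, 2.05% had every KO column above every WT column. *Smc3* was named after its values were seen. *Smc1a* had the largest difference, 0.27, and *Stag2* and *Rad21* both stood at 0.22.

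In the 9 culture comparisons 0 of 45 results of the cohesin ring genes were called by limma, and 2 had an unadjusted p under 0.05, where over all genes 3.31% of results were called and 22.1% had such a p. The largest values were those of *Stag1*, *Stag2* and *Rad21*. *Stag1* had -0.23 (SE 0.16, adjusted p = 0.756) in the IL-4 interaction, *Stag2* had -0.21 (SE 0.05, adjusted p = 0.0246) in WT with TGF-β, and *Rad21* had -0.13 (SE 0.13, adjusted p = 0.821) in the IL-4 interaction. The ring genes ran from -0.23 to 0.20 over the 9 comparisons and *Ctcf* from -0.26 to 0.20.

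The 9 genes that load, release or acetylate cohesin were likewise not called in any of 81 results, of which 10 had an unadjusted p under 0.05, again beside 3.31% and 22.1% over all genes. *Cdca5* encodes sororin, which protects cohesin on replicated chromosomes, and *Esco2* encodes an acetyltransferase of S phase. *Cdca5* was -0.37 (SE 0.07, adjusted p = 0.00235) and *Esco2* -0.30 (SE 0.09, adjusted p = 0.0211) in WT with both cytokines, both short of a fold of 1.5. *Pds5b*, which encodes a regulator of cohesin release, had its largest value, -0.18 (SE 0.13, adjusted p = 0.407), in the interaction with both cytokines. The KO effect minus the WT effect of both cytokines on *Cdca5* was 0.45 (SE 0.10, adjusted p = 0.00883), also short of it. Over all columns KO minus WT was highest for *Cdca5*, *Esco2* and *Pds5a*, at 0.45, 0.35 and 0.24, and 8 of 9 genes were above 0 with a median of 0.07.

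Of 14 partners of CTCF and other boundary factors, again none was called in 126 results, 16 of them with an unadjusted p under 0.05, beside the same shares over all genes. *Top2b*, which encodes a topoisomerase that relieves DNA torsion, was -0.55 (SE 0.21, adjusted p = 0.0976) in the interaction with both cytokines. *Vezf1*, a zinc finger factor found at insulators, was 0.34 (SE 0.07, adjusted p = 0.00437) in WT with both cytokines, and *Patz1*, another zinc finger factor, was 0.29 (SE 0.08, adjusted p = 0.103) in KO with both cytokines. Over all columns KO minus WT was 0.31 for *Npm1*, 0.24 for *Smarca5*, which encodes the remodeler SNF2H, and -0.20 for *Maz*, and 8 of 14 genes were above 0 with a median of 0.03. Of the lists tested, only those of markers held called genes. Against 3.31% of results called over all genes, 5 of 54 were called among T cell markers, all of *Cd28*, which ran from -0.89 in KO with IL-4 to 0.66 in the TGF-β interaction, while *Cd3e* reached 0.58 and *Lck* -0.47. Among markers of other cells 6 of 62 were called, 5 of *Cd8b1* (-0.75 to 0.94) and 1 of the natural killer gene *Ncr1* (0.88), while *Lyz2* and *Ms4a1* reached 1.58 and 1.23 without a call.

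**Figure D3:**
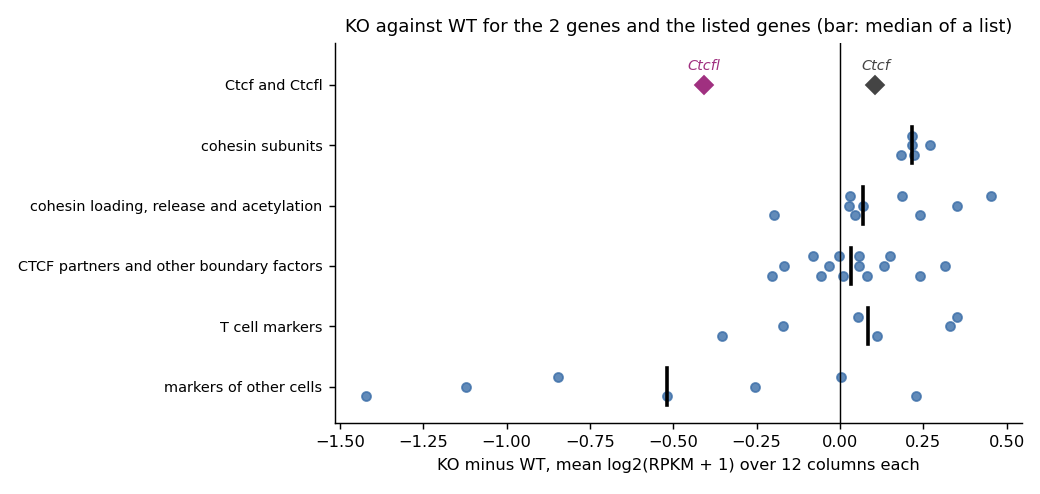
KO minus WT in mean log2(RPKM + 1) over 12 columns each (horizontal axis) for *Ctcf* and *Ctcfl* (diamonds) and for the listed genes with a mean of at least 1 RPKM (points), with the median of each list as a bar. The 5 cohesin subunits lie between 0.18 and 0.27, *Ctcf* lies at 0.11, and *Ctcfl* lies at -0.41 on the side of most markers of other cells.

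The genes most like each member were found by Pearson correlation of log2(RPKM + 1) over the 24 columns, which share 6 mice and carry the difference between genotypes. For *Ctcf* these were *Pitpna* (r = 0.89), *Map3k7* (r = 0.84), *Arfgef1* (r = 0.84), *Mark3* (r = 0.83) and *Rn45s* (r = 0.80), the last a row of precursor ribosomal RNA at a mean of 8603 RPKM. *Rn45s* ran from 3776 to 8537 RPKM in WT and from 6864 to 14204 RPKM in KO. Its bearing on the RPKM of other genes was not tested. For *Ctcfl* they were *B4galnt2* (r = 0.97), *Gm15910* (r = 0.96), *Erich5* (r = 0.96), *Ybey* (r = 0.96) and *D17H6S53E* (r = 0.96). *Erich5*, for example, ran from 2.02 to 3.12 RPKM in WT and from 1.07 to 1.99 RPKM in KO. *Ctcf* and *Ctcfl* themselves had r = -0.35 over all 24 columns, -0.11 within WT and -0.02 within KO, so that inside a genotype they hardly varied together.

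DNase-seq marks open chromatin, since DNase I cuts accessible DNA, and a DNase I hypersensitive site (DHS) is a region where such fragments pile up. The 4 lists held 44298 DHSs for WT control, 33880 for WT with both cytokines, 33665 for KO control and 27145 for KO with both cytokines. With 1 library per condition, labelled as replicate 3 of its genotype, none of the differences between lists has a replicate check, and the depth of these libraries is unknown.

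The start of *Ctcf* lay in open chromatin in 4 of 4 lists. The DHS (chr8:108159821-108160941 at its widest) covered the annotated start and exon 1, and its summit stood at -192 to -184 bases from the start (negative is in front), within the CpG-rich stretch shown above. Its fold enrichment was 7.08 in WT control, 6.75 in WT with both cytokines, 5.99 in KO control and 5.65 in KO with both cytokines. By −log10 p it ranked within the upper 18.6% to 25.1% of each list.

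No DHS lay at the annotated start of *Ctcfl* in any list. The nearest one was between 11801 and 11886 bases away, inside the gene. In the WT control list 92.9% of the 9049 genes with a mean of at least 1 RPKM and an annotated start had a DHS within 1000 bases of a start, and in KO with both cytokines it was 89.4%. In all 4 lists together, 6.1% of these genes had none within 1000 bases and 2.97% none within 10000 bases, and *Ctcfl* was among both. Among 1437 genes of 5 to 10 RPKM, the range in which *Ctcfl* falls, these shares were 5.22% and 2.51%.

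Inside *Ctcfl*, a DHS at the border of exon 7 and intron 7 (chr2:172932915-172933225) was present in 4 of 4 lists, with a fold enrichment between 4.32 and 6.09. A second one, in intron 9 (chr2:172922863-172923130), was listed for WT with both cytokines and KO with both cytokines and for neither control, with folds of 4.46 and 3.94. By −log10 p, ranked from the strongest, these DHSs stood between 57.1% and 89.8% of the way down their lists.

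In *Ctcf*, a DHS of intron 2 (chr8:108185090-108185361) was listed for WT with both cytokines (fold 5.40) and KO with both cytokines (fold 3.48) and for neither control. By −log10 p it stood 61.4% and 98% of the way down these lists. The share of all DHSs listed in this way, as at intron 9 of *Ctcfl*, was not counted. A DHS in intron 1 (chr8:108166430-108166629) was listed only for WT control, the longest list, with a fold of 3.92. At a −log10 q of at least 5, the DHSs of intron 2 of *Ctcf* and intron 9 of *Ctcfl* were left in WT with both cytokines alone.

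**Figure D4:**
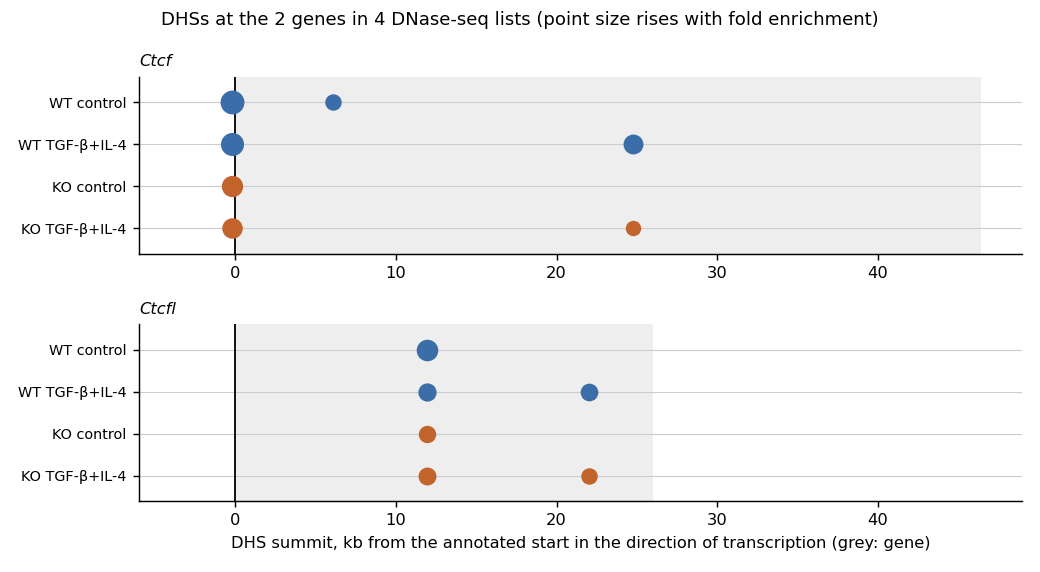
DHS summits (points, larger for a higher fold enrichment) at *Ctcf* (upper panel) and *Ctcfl* (lower panel) by distance in kb from the annotated start (horizontal axis) in each of 4 lists (rows), with the gene in grey. The *Ctcf* start has a DHS in all 4 lists, the *Ctcfl* start has none, and the *Ctcfl* DHS in all 4 lists has its summit 11931 to 11954 bases inside the gene.

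Sites that CTCF can bind were sought in the DHSs by their letters. The search used CCANNAGNNGGC, a core of the CTCF motif in which N is any base, on both strands within 100 bases of each summit, and the same letters reversed, CGGNNGANNACC, as a background. The reversed letters begin with CG, a pair that is rare in mouse DNA, so the flanks of the DHSs serve as a second background. The 3 windows shown are those of the strongest WT control DHSs, by −log10 p, that held the letters and were in all 4 lists, which 2299 DHSs did, and capitals mark the fixed letters.
chr3:95392726-95392755 (minus strand, mm9): caaacatcaCCAaaAGgaGGCaggtttggg
chr8:20020439-20020468 (minus strand, mm9): atataggggCCAccAGagGGCgcgaggcgg
chr4:40226526-40226555 (minus strand, mm9): acccagggtCCAagAGagGGCtttgcgcat

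The first window lay 181 bases from the start of *Golph3l* and the third 62 bases from that of *Ndufb6*, and the second was 61638 bases from the nearest coding start, of *Gm15319*. None of the 3 was inside an annotated gene. Their summits were 25 to 41 bases from the letters, and the fold enrichment of the first was 18 in WT control, 15.9 in WT with both cytokines, 13.3 in KO control and 14.9 in KO with both cytokines.

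About 1 in 9 DHSs held the letters in each condition. The share was 11.4% of DHSs in WT control (95% Wilson interval 11.1 to 11.7), 11.7% in WT with both cytokines (11.4 to 12.1), 12.3% in KO control (12 to 12.7) and 10.6% in KO with both cytokines (10.2 to 10.9). The intervals cover counting error only. The reversed letters were in 0.257% to 0.332% of DHSs, and in the RefSeq promoter windows named above the core was in 2.43% and the reversed letters in 0.463%.

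The letters stood at the summits. In WT control there were 56.9 matches per 1000 DHSs in the central 25 bases and 2.25 per 25 bases at 750 to 1000 bases from the summit, a ratio of 25.2. The ratio was 25.7 in WT with both cytokines, 28.8 in KO control and 22.2 in KO with both cytokines, and for the reversed letters it was between 1.94 and 3.75. In all 4 conditions the core was thus concentrated at DHS summits, and a match by letters does not show that CTCF was bound.

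None of the DHSs at *Ctcf* and *Ctcfl* held either set of letters, nor did the 300 bases at the *Ctcf* start. The absence of exact letters says nothing on binding by CTCF there.

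**Figure D5:**
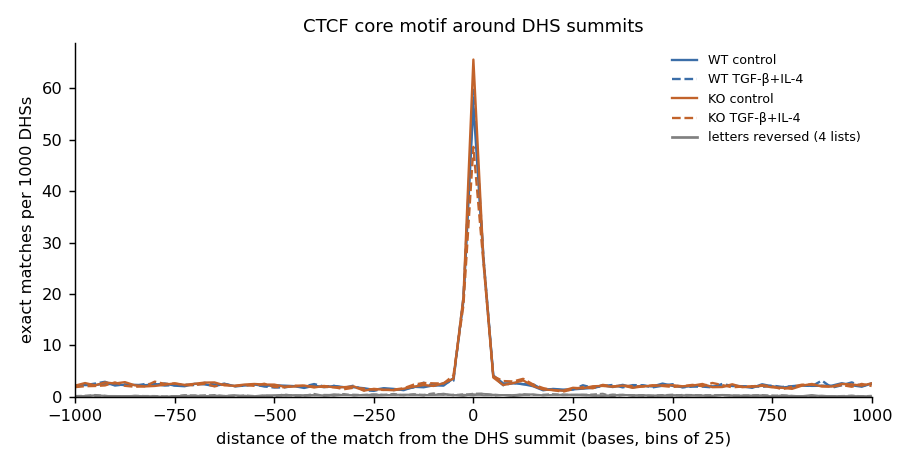
Exact matches of the CTCF core letters per 1000 DHSs (vertical axis, linear from 0) by distance from the DHS summit in bins of 25 bases (horizontal axis), for 4 DNase-seq lists, with the letters reversed in grey. All 4 coloured lines peak at the summit, between 48.6 and 65.6 matches per 1000 DHSs, and fall to between 2.20 and 2.32 at 750 to 1000 bases.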

How the data were processed

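The authors aligned RNA-seq and DNase-seq reads to mm9 with Bowtie2 and dropped poorly mapped and duplicate reads. RPKM per gene were deposited for 24 columns. DHSs were called by MACS2, per the labels, on each library alone, and the deposited lists give a fold enrichment, the −log10 of p and q, and a summit position. Versions are not given in the sources used here.

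*Ctcf*, *Ctcfl* and the gene lists were chosen with earlier results of these data known. Culture comparisons used limma 3.58.1 in R 4.3.3 on log2(RPKM + 1), each fitted to its own groups after genes averaging under 1 RPKM had been left out. RPKM are not counts, so no count test was run. Tested on simulated data for WT with both cytokines against control (9798 genes), the fit recovered 94.9% of 2-fold and 100% of 4-fold changes with 0 false calls. Changes under the cut of 1.5-fold were not simulated, so these rates say nothing on the smaller changes seen in the 2 genes. Listed genes were all counted, and named if called or if among the 3 of their list with the largest absolute change over the culture comparisons or over KO against WT. *Smc3* was named after its values were seen. Of the genes this rule names, 1 is not reported here. The titles number the libraries of a genotype 1 to 3 and name no mouse, so a shared number was taken as the same mouse. Deviations of such libraries from their group means had correlations of -0.09 to 0.55 in WT (median 0.06) and -0.30 to 0.42 in KO (median 0.19) by position. These values do not settle the pairing, so fits with a replicate block were run as alternatives. Letters were searched in the mm9 sequence, gene positions are from GENCODE vM1, and Python 3.11.15, numpy 2.4.6, scipy 1.17.1 and matplotlib 3.10.9 were used.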

Additional observations from a re-analysis of the deposited data

How the results depend on the processing

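Over 18 culture results of the 2 genes and 240 alternative values, 226 kept their direction and 0 were called. Part of this was fixed in advance. Another filter on low values, no trend, the replicate block, 1 fit over all columns and a looser threshold leave the difference itself unchanged. In WT, the fit to the columns with listed counts is the fit without mouse 2. Direction was open only under the headings, another value added to RPKM, another scaling and the loss of a mouse. With groups as the columns are headed, *Ctcfl* turned to 0.00818 in WT with IL-4, to 0.19, 0.0704 and 0.10 in KO with TGF-β, IL-4 and both, and to 0.35 and 0.0622 in the interactions with TGF-β and IL-4, and in that limma fit 0 genes were called in any of 9 comparisons (61 to 1298 at an unadjusted p under 0.05), against 1 to 910 by position. The cause was not tested. Leaving out 1 mouse turned the sign of 8 results. For *Ctcf* the values ran from -0.000287 to 0.21 in WT with TGF-β, from -0.13 to 0.0147, -0.21 to 0.00463 and -0.15 to 0.11 in KO with TGF-β, IL-4 and both, and from -0.34 to 0.0150 in the TGF-β interaction. For *Ctcfl* they ran from -0.14 to 0.11 in WT with IL-4, from -0.14 to 0.0288 in KO with both cytokines and from -0.17 to 0.0653 in the TGF-β interaction. With the replicate block, WT with both cytokines against control gave *Ctcf* 0.20 (adjusted p = 0.0472 in limma) and *Ctcfl* -0.22 (adjusted p = 0.0382), and the block changed no call of the 2 genes. It moved the genes called in KO with both cytokines from 185 to 88, and those without a filter on low values were 99 there, 154 in KO with IL-4 (241 in the reported fit) and 83 in WT with IL-4 (125). With a mean of at least 5 RPKM they were 342 in WT with TGF-β (555), 580 in WT with both (910), 153 in KO with IL-4, 80 in WT with IL-4 and 284 in the TGF-β interaction (456). Without mouse 1 of each genotype they were 12 in WT with IL-4, 294 in WT with TGF-β, 121 and 32 in KO with IL-4 and both, and 216 and 122 in the interactions with TGF-β and both (408 in the reported fit), without mouse 2 they were 73 in WT with IL-4 and 280 in the TGF-β interaction, and without mouse 3 they were 37 in KO with both and 120 in the interaction with both. In 1 fit over all 24 columns KO with both had 278. With quantile normalization *Ctcfl* in WT with both cytokines was -0.31 (adjusted p = 0.00849 in limma), still short of a fold of 1.5, while *Ctcf* fell to 0.11 (adjusted p = 0.222). With scaling by median ratios the limma values there were 0.15 for *Ctcf* (adjusted p = 0.105) and -0.27 for *Ctcfl* (adjusted p = 0.0146). In 1 fit over all 24 columns the adjusted p values there were 0.149 for *Ctcf* and 0.0672 for *Ctcfl*. The size of the *Ctcf* difference thus depended on the scaling.

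KO minus WT kept its sign in 18 of 18 alternatives for *Ctcfl* and in 16 of 18 for *Ctcf*. For *Ctcfl* only another scaling of the libraries could have changed the sign, since every KO column lay below every WT column. Within both cytokines *Ctcf* was -0.00360 by position and -0.0609 as headed, and within control by position 0.25. *Ctcfl* was -0.60 within IL-4 and -0.21 within both cytokines by position, and -0.56 within control and -0.20 within TGF-β as headed. At −log10 q of at least 5, *Ctcf* and *Ctcfl* had 1 DHS each in KO with both cytokines in place of 2. In the order WT control, WT with both cytokines, KO control, KO with both, the share of DHSs with the core letters was 10.4%, 10.8%, 11.4% and 9.45% within 50 bases of the summit, 11.9%, 12.4%, 13.2% and 11.1% at that −log10 q, and 35%, 36.6%, 38.3% and 35.7% with at most 1 mismatch, and in the 27145 strongest DHSs of each list it was 11.0%, 12.4%, 13.4% and 10.6%.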

Other observations

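The share of DHSs with the CTCF core letters depended on how strong a DHS was. With each list cut into 5 equal parts by −log10 p, the strongest part of WT control held them in 3.88% of DHSs, the next parts in 11.9%, 16.4% and 15.7%, and the weakest in 9.28%. The strongest part was also lowest in the other 3 lists, at 3.42% in WT with both cytokines, 4.04% in KO control and 3.63% in KO with both. By how many of the lists shared a DHS, those of WT control held the letters in 9.08% of cases when in that list alone, in 13.2% and 15.8% when in 2 and 3 lists, and in 10.5% when in all 4. The DHSs of KO control in that list alone held them in 16.6% of 1758 cases (95% Wilson interval 14.9 to 18.4), and those of KO with both cytokines in that list alone in 8.04% of 858 cases (6.40 to 10.1). With 1 library per condition these shares describe 4 libraries and were not tested.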
